A study of Sus scrofa with 12 samples.

Results

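Annexins and galectins are among the proteins most often found in extracellular vesicles (EVs), and the mRNAs that encode them were followed here from porcine mesenchymal stromal/stem cells (MSCs) to the EVs these cells release. The 9 genes were chosen by name: the annexins ANXA1, ANXA2, ANXA4, ANXA5, ANXA6, ANXA7 and ANXA11 and the galectins LGALS1 and LGALS3, each read from the entry of its symbol with the most reads, out of 29658 entries in the gene count table. The mRNA libraries came from 3 female domestic pigs of 3 months, with 1 MSC and 1 EV library from each pig, numbered as replicates 1 to 3 in the order of the labels. MSCs were released from abdominal fat with collagenase and grown in medium with platelet lysate to passage 3, and EVs were pelleted from their supernatants by ultracentrifugation. The methods name no treatment or genetic change of the animals beyond anesthesia and analgesics for the fat biopsy. The group compared as MSC is therefore the parent culture, and the group compared as EV is the vesicle pellet of that culture.

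Annexins are cytosolic proteins that bind negatively charged phospholipids, above all phosphatidylserine, when calcium rises, through a conserved core of annexin repeats, and they differ mainly in the N-terminal tail that recruits partners such as S100 proteins. Galectins are lectins for beta-galactosides on glycoproteins, made in the cytosol and exported without a signal peptide. Both families are membrane-linked proteins that stromal cells make in quantity, and vesicle preparations are commonly described by them at the protein level. The values here are of their mRNA.

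The 6 libraries held between 10429085 and 12276855 reads counted on genes. Of the MSC markers, NT5E (CD73) had 900 to 1816 reads per library, CD44 3603 to 10023, PDGFRB 3464 to 10480 and ENG (CD105) 44 to 114. Among tetraspanins of vesicle membranes, CD63 had 8359 to 19616 reads per library, CD81 319 to 676 and CD9 4 to 7. The entries of ENG and CD9 share 99.7% and 99.9% of their span with another. THY1 (CD90) and COL1A2 stood at 0 reads in every library, on entries that another entry covers in full. No adipocyte marker could be tested, their summed level being at most 0.232 CPM in MSCs and 0.422 to 0.708 in EVs with PLIN1 at 0, and the markers of red cells and platelets with an entry were at 0 reads. Since only shares of a library are measured, less of an mRNA in EVs and more of the others cannot be told apart.

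The 9 genes fell into 2 kinds by how their entries lie on the genome. ANXA5, ANXA6, ANXA7 and ANXA11 had no other entry over their span and at least 1273 reads in every library. The other 5 are each covered, in whole or in part, by a second entry on the same strand. For ANXA1 the entry used (ENSSSCG00000005267, build susScr3, chromosome 1 from 252989614 to 253007803) shared 97.8% of its span with an entry named by symbol, and for ANXA2 (ENSSSCG00000004578, chromosome 1 from 123368016 to 123414408) the share was 98.8%. For ANXA4 (ENSSSCG00000008336, chromosome 3 from 76060039 to 76128752) it was 45.7%, and for LGALS3 (ENSSSCG00000005055, chromosome 1 from 204956631 to 204974124) 57.3%. In these 4 the entry named by symbol had 0 reads in every library. LGALS1 (chromosome 5 from 7642321 to 7645763) was listed by symbol only, and an entry without a symbol in the tables used covers the whole of its span.

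ANXA1, the anti-inflammatory annexin that acts on formyl peptide receptors, had 9, 1 and 7 reads in the MSCs of pigs 1 to 3 against 2, 3 and 2 in their EVs. ANXA2, which pairs with S100A10 at the plasma membrane, had 2, 1 and 0 reads in MSCs against 1, 0 and 0 in EVs. LGALS1, the galectin that forms homodimers, had 0 reads in all 6 libraries. A count of 0 allows up to 3 reads in a library, which corresponded to 0.244 to 0.288 CPM (reads scaled to the size of the library), for counting error only. These 3 genes did not pass edgeR's filter on low counts, so that no EV to MSC difference could be detected with so few reads. Without the filter, ANXA1 gave a log2 fold change of -1.18 with a standard error of 0.90 (edgeR, adjusted p = 0.585) and ANXA2 one of -1.28 with a standard error of 1.57 (edgeR, adjusted p = 0.699).

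Low counts on entries that share their span were seen across the table. Of the 10919 entries that share at least 90% of their span with another, 56.2% had 0 reads in all libraries, against 28.8% of the 16009 entries that overlap no other. ANXA1, ANXA2, ANXA4 and LGALS3 are among 2291 symbols listed both by symbol and by Ensembl identifier over overlapping spans. There 79.2% of the symbol-named entries were at 0 reads, near the 71.7% of all symbol-named entries, and the Ensembl-named entries had a median of 1 read over the 6 libraries together. The Ensembl-named entries of ANXA4 and LGALS3 had 2650 and 933 reads, and those of ANXA1 and ANXA2 had 24 and 4. Symbols whose entry overlapped no other had a median of 692 reads. A shared span did not always go with few reads, since FN1 (fibronectin), with 344929 to 1017065 reads per library, lies on an entry that another covers in full. Shared spans were taken from start and end alone, without regard to strand or exons. Whether the overlap at FN1 is of the same kind as at ANXA1, ANXA2 or LGALS1 was not tested. Some counting programs, featureCounts by default among them, leave out a read that falls on more than a single gene. The methods name featureCounts and the labels HTSeq, the setting used is not given in the sources used here, and its part in the counts of these genes was not tested. The entry over LGALS1 that carries no symbol had 2, 0 and 1 reads in MSCs against 3, 3 and 3 in EVs.

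**Figure D1:**
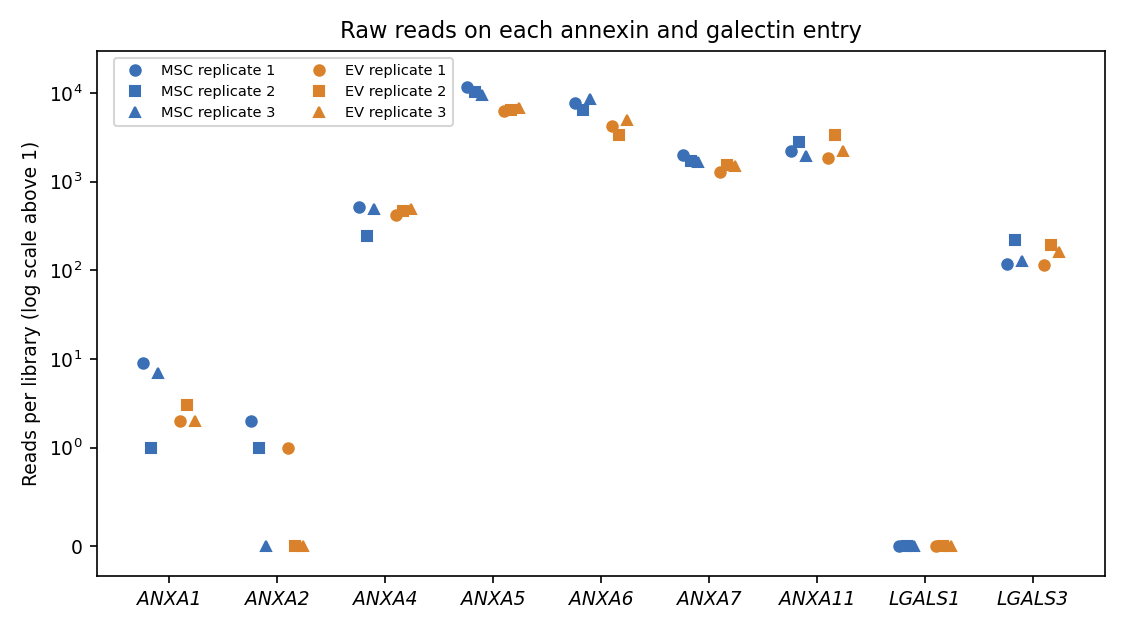
Raw reads per library (vertical axis, logarithmic above 1, with 0 at the base) for the 9 genes, with blue for MSC and orange for EV libraries and a marker shape per pig. ANXA5 and ANXA6 hold at least 3340 reads in every library, ANXA1 holds 1 to 9, ANXA2 0 to 2, and LGALS1 lies at 0 throughout.

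Levels between genes were compared per length, in RPKM, reads scaled to the length of the gene and the size of the library, as the authors deposited them. In MSCs, ANXA6 had 106 ± 15.1 RPKM and ANXA5 101 ± 8.59 (SD, n = 3 each), both above 99.1% of entries with reads. The ranges of ANXA6 (90.9 to 121) and ANXA5 (93.5 to 110) overlapped, so their order is not set. ANXA7 with 19.9 ± 1.88 and ANXA11 with 18.9 ± 3.56 RPKM followed, again with overlapping ranges, and then ANXA4 with 4.57 ± 1.62 and LGALS3 with 3.39 ± 1.23 (SD, n = 3 each). The same 3 steps were seen in EVs, where ANXA5 had 64.8 ± 3.75 and ANXA6 61.1 ± 13.3 RPKM, ANXA11 20.8 ± 5.82 and ANXA7 16.6 ± 1.33, and ANXA4 5.19 ± 0.401 and LGALS3 3.53 ± 0.76 (SD, n = 3 each). In EVs, unlike in MSCs, the ranges of ANXA4 and LGALS3 did not overlap. For ANXA4 and LGALS3 the level is that of an entry shared in part with another, of 2105 and 1044 bases against 958 and 938 bases of the symbol-named entry, so their place below the other annexins carries that limit.

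The quasi-likelihood test of edgeR was then applied to EV against MSC libraries, scaled by the trimmed mean of M-values (TMM) and p-values adjusted by the Benjamini-Hochberg method over all 12392 entries that passed the filter. A gene was called at a fold change over 2 with an adjusted p under 0.05. Of the 9 genes, 6 could be tested, and 0 were called higher and 0 lower, against 0% of all entries in either direction. DESeq2 called 0 of the 6 in either direction, against 2.04% of all entries higher and 1.5% lower, and the fit with the pig as a block called 0, against 0.492% and 0.605%. In limma on log2 RPKM with 1 or 0.1 added, 0 of the 6 were called, against 0% of entries higher and 0.104% or 0.0664% lower. By the fold and p that the study used as thresholds, a fold change over 2 and an unadjusted p under 0.05, here from edgeR, 5.55% of all entries were higher and 3.57% were lower in EVs, and 0 of the 6 were in either set. At an unadjusted p under 0.05 with no limit on the fold, 2 of the 6 were lower (ANXA5 and ANXA6) and 0 higher, against 7.93% and 8.03% of all entries. When the pig was a block, ANXA5 no longer met this limit (edgeR, unadjusted p = 0.081) and ANXA6 did (0.0302). The median log2 fold change was -0.13 over the 6 genes and -0.02 over all entries. Leaving out a library gave -0.27 to 0.02 for the 6 genes, above 0 without EV replicate 1, so the sign of their median is not set. Their log2 fold changes were split, with 3 of the 6 below 0 against 50.9% of all entries.

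ANXA5, the annexin used as a probe for exposed phosphatidylserine, lies on chromosome 8 from 109609049 to 109642588 (ENSSSCG00000009097). It had 895, 979 and 816 TMM-scaled CPM in the MSCs of pigs 1 to 3 against 535, 497 and 682 in their EVs. Every EV library lay below every MSC library, and the EVs of all 3 pigs were lower than their own MSCs, which held for 24.2% of all entries. MSCs averaged 897 ± 81.8 CPM and EVs 571 ± 97.7 (SD, n = 3 each). In edgeR this was a log2 fold change of -0.65, with a standard error of 0.26 and a 95% interval from -1.26 to -0.04, and the adjusted p from edgeR was 0.294, so the difference did not pass the test over all entries.

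ANXA6, a large annexin with a duplicated core that is tied to late endosomes and cholesterol traffic, lies on chromosome 16 from 78094269 to 78115994 (ENSSSCG00000017089). It had 591, 616 and 726 CPM in MSCs against 361, 261 and 498 in EVs. Here too every EV library lay below every MSC library, with the lowest EV value in the pig of replicate 2. MSCs averaged 644 ± 72.3 CPM and EVs 373 ± 119 (SD, n = 3 each). In edgeR this was a log2 fold change of -0.79, with a standard error of 0.31 and a 95% interval from -1.50 to -0.07 (edgeR, adjusted p = 0.286). For ANXA5 and ANXA6 alike, the two-sided exact permutation test on log2 CPM gave p = 0.1, the smallest that 3 libraries against 3 allow. Groups that did not overlap with EVs below were found for 13.6% of all entries tested, and for 2 of the 6 genes. With the pig as a block the log2 fold changes were -0.66 for ANXA5 and -0.83 for ANXA6, with adjusted p-values of 0.305 and 0.213 from edgeR.

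Endothelial markers were set beside these values. Of 6 such markers 5 had an entry, and their summed level was 10 to 16.9 CPM in MSC libraries and 1.64 to 6.75 in EV libraries. This difference was PECAM1 (CD31), the 1 marker that could be tested, with 215, 111 and 114 reads in MSCs against 78, 20 and 31 in EVs, a log2 fold change of -1.71 and an adjusted p of 0.249 from edgeR. Its entry shares 97.1% of its span with another. The others were at or near 0, VWF with 0 reads throughout, KDR with 0 in MSCs and 1 in EVs, TEK with 1 in MSCs and 4 in EVs, and CLDN5 with 0 to 4 reads per library. The leukocyte markers did not separate the groups, with summed levels of 48.7 to 51.1 CPM in MSCs and 45.2 to 63.7 in EVs, carried mostly by CD14 and with CD3E, MS4A1 and CD163 at 0 reads. The part of other cell types in the annexin values was not tested.

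ANXA7, an annexin with a long tail that takes part in granule fusion and binds sorcin, lies on chromosome 14 from 82330744 to 82360270 (ENSSSCG00000010299). It had 155, 162 and 142 CPM in MSCs against 107, 121 and 153 in EVs. The groups overlapped because EV replicate 3 lay above MSC replicate 3, the only pig with more in EVs, although in raw reads (1669 to 2006 in MSCs and 1273 to 1546 in EVs) they did not. The log2 fold change was -0.27, with a standard error of 0.23 and a 95% interval from -0.80 to 0.26 (edgeR, adjusted p = 0.545).

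ANXA11, whose long disordered tail tethers RNA granules to lysosomes, lies on the same chromosome from 88448385 to 88490746 (ENSSSCG00000010331). It had 174, 267 and 164 CPM in MSCs against 157, 265 and 224 in EVs. The pig of replicate 2 was the highest in both groups, and the groups overlapped. The log2 fold change was 0.10, with a standard error of 0.31 and a 95% interval from -0.62 to 0.81 (edgeR, adjusted p = 0.881).

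ANXA4, an annexin that self-associates on membranes, had 40.2, 23.6 and 42.2 CPM in MSCs against 36, 36.2 and 50.2 in EVs. MSC replicate 2 was the lowest library, and the groups overlapped. The log2 fold change was 0.21, with a standard error of 0.30 and a 95% interval from -0.49 to 0.90 (edgeR, adjusted p = 0.727). Without MSC replicate 2 it was -0.01.

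LGALS3, the galectin with a collagen-like tail that crosslinks glycans and senses damaged endosomes, had 9.22, 20.9 and 10.7 CPM in MSCs against 9.79, 15.2 and 16.2 in EVs. These rest on 116 to 218 reads per library, and the highest and the lowest value were both in MSCs. The log2 fold change was 0.01, with a standard error of 0.40 and a 95% interval from -0.91 to 0.94 (edgeR, adjusted p = 0.99). A fold change of nearly 2 in either direction thus lay within the interval, and the sign turned with RLE scaling, with DESeq2 and when any of 4 libraries was left out.

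**Figure D2:**
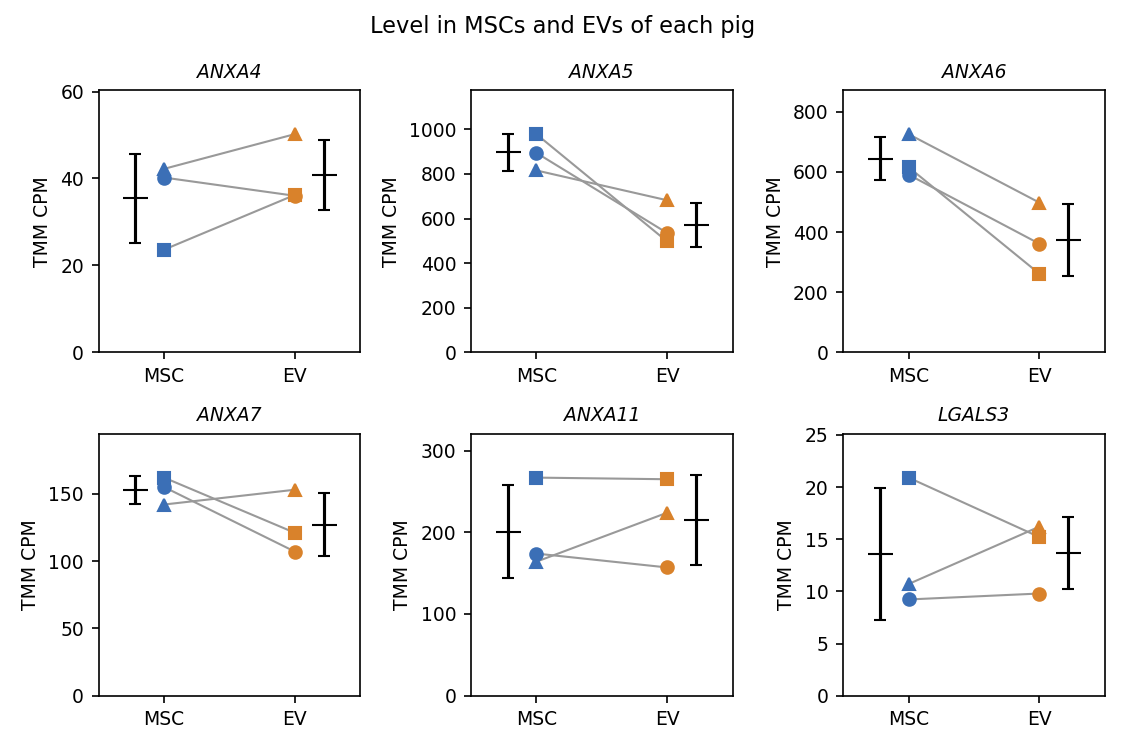
TMM-scaled CPM of the 6 genes tested (vertical axes from 0) in the MSCs and EVs of each pig, joined by grey lines, with a marker shape per pig and black bars for the mean and SD of 3 libraries. For ANXA5 and ANXA6 every line runs downward from MSC to EV, while the other 4 genes have lines in both directions.

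**Figure D3:**
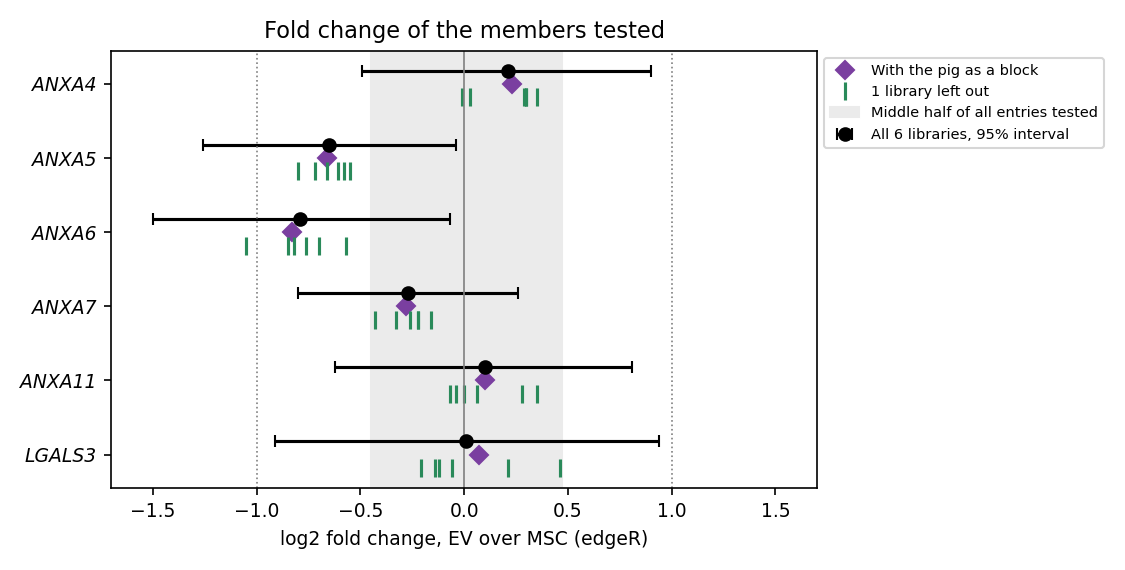
log2 fold change of EV over MSC from edgeR for the 6 genes tested, with black points and bars for all 6 libraries and the 95% interval, purple diamonds for the fit with the pig as a block and green ticks for the fits that left out a library. The grey band from -0.45 to 0.47 holds the middle of all entries, dotted lines mark a fold change of 2, and ANXA5 and ANXA6 lie to the left of the band.

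Ratios of reads within a library do not depend on how libraries are scaled. The 9 genes together took 0.205%, 0.176% and 0.198% of the counted reads in the MSCs of pigs 1 to 3 against 0.137%, 0.126% and 0.138% in their EVs, with no overlap between the groups (exact permutation, two-sided, p = 0.1, which is the minimum). The MSC mean was 1.44 times the EV mean, and ANXA5 and ANXA6 made up most of these reads in every library. ANXA5 held 42.9% to 48% of the reads of the 9 genes in MSCs and 41.6% to 44.3% in EVs. ANXA6 held 29.8% to 38.2% and 21.8% to 30.7%, and ANXA11 held 8.62% to 12.9% and 13% to 22.2%. ANXA7 held 7.45% to 8.33% in MSCs and 8.91% to 10.1% in EVs, and ANXA4 held 1.14% to 2.22% and 2.98% to 3.09%. The shares of ANXA4, ANXA7 and ANXA11 were thus higher in EVs without overlap, by a narrow margin for ANXA11. Those of ANXA5 and ANXA6 overlapped between the groups. How often such shares separate in other sets of genes was not computed, so no result is read from this separation. Shares add to a fixed total, so they are not independent, and a lower share of any gene raises those of the others.

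**Figure D4:**
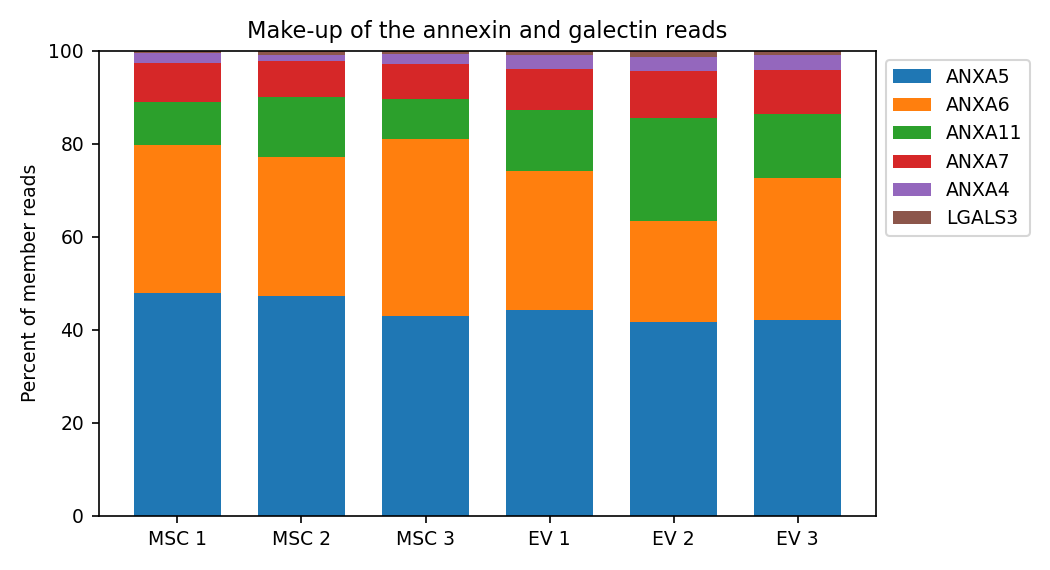
Percent of the reads of the 9 genes that fell on each of 6 of them (vertical axis, stacked to 100) in each library, with ANXA1, ANXA2 and LGALS1 too small to draw. The ANXA11 band is 8.62% to 12.9% in MSC libraries and 13% to 22.2% in EV libraries, and the ANXA6 band is thinnest in EV replicate 2.

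Of the 15 ratios between pairs of the 6 genes, 7 did not overlap between the groups. Over all pairs of tested entries with reads in every library, 25.3% did not overlap. The 15 pairs are not independent, and 6 of the 7 have ANXA5 or ANXA6 as a term, so they repeat the lower values of these genes. The 7 set ANXA5 or ANXA6 against ANXA4, ANXA7 or ANXA11, or ANXA4 against ANXA7. The log2 ratio of ANXA5 to ANXA7 was 2.53, 2.59 and 2.53 in the MSCs of pigs 1 to 3 against 2.31, 2.04 and 2.16 in their EVs, a difference of -0.38. That of ANXA6 to ANXA11 was 1.77, 1.21 and 2.15 in MSCs against 1.20, -0.02 and 1.15 in EVs, a difference of -0.93. Each of the 7 had a two-sided exact permutation p of 0.1, and 0.214 after Benjamini-Hochberg adjustment over the 15 pairs. ANXA5 to ANXA6 itself overlapped, with a difference of 0.17 (exact permutation p = 0.6). The log2 ratio of galectin to annexin reads, which rests on LGALS3 since LGALS1 was at 0, was -7.25 ± 0.55 in MSCs and -6.62 ± 0.32 in EVs (SD, n = 3 each, exact permutation p = 0.3).

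Most other members of both families could not be assessed. Of 5 further annexins 4 had an entry, ANXA8, ANXA9 and ANXA10 were at 0 reads, the first pair on entries that another covers in full, and ANXA13 had 26 reads in MSCs and 27 in EVs. Of 8 further galectins, 6 were at 0 reads, all on entries that share 98.6% to 100% of their span with another. LGALS8, a tandem-repeat galectin that marks damaged vacuoles, lies on an entry that shares 57.4% of its span and had 606, 301 and 381 reads in the MSCs of pigs 1 to 3 against 574, 543 and 379 in their EVs, with a log2 fold change of 0.26 and a standard error of 0.26 (edgeR, adjusted p = 0.616). LGALSL, a galectin-related protein, had a log2 fold change of 0.24 and a standard error of 0.32 (edgeR, adjusted p = 0.708). By reads, these 2 exceeded LGALS3.

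The S100 and EF-hand proteins that bind annexin tails were described as a list. Of 9 listed genes 7 had an entry and 6 could be tested, of which 0 were called by the adjusted threshold in edgeR, with the pig as a block or in DESeq2. All 6 had a log2 fold change below 0, against 50.9% of all entries. The 6 ran from -0.93 to -0.13 with a median of -0.70, against a median of -0.02 over all entries. S100A10, the partner of ANXA2, had 5549, 3191 and 4316 reads in the MSCs of pigs 1 to 3 against 2808, 1357 and 2770 in their EVs. Its log2 fold change was -0.82, with a standard error of 0.38 (edgeR, adjusted p = 0.33). In TMM-scaled CPM every EV library lay below every MSC library for 3 of the 6 (S100A10, S100A11 and S100A6), against 13.6% of all entries. The entries of S100A6 and S100A16 share 88.5% and 86.0% of their span with another. S100A4, which is linked to cell motility and whose entry shares 57.9% of its span, had a log2 fold change of -0.84 with a standard error of 0.48 (edgeR, adjusted p = 0.395). S100A11, the partner of ANXA1, was singled out after its values were seen. Of the 6 genes tested it alone had an unadjusted p under 0.05 in edgeR, against 7.93% of all entries lower at that limit. It had 4318, 2683 and 3631 reads in MSCs against 2348, 1563 and 1506 in EVs, a log2 fold change of -0.93 with a standard error of 0.27 (edgeR, adjusted p = 0.237). S100A10 and S100A11 thus had at least 1357 reads in every library while ANXA1 and ANXA2 themselves had fewer than 10 in each library. The entries of ANXA1 and ANXA2 share 97.8% and 98.8% of their span with another, and those of S100A10 and S100A11 share none. No difference in level between partners is therefore read from these counts.

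Genes of membrane repair and phosphatidylserine exposure gave no call. Of 16 listed, 14 had an entry and 9 were tested. Of these 7 were below 0, against 50.9% of all entries, and 2 above 0, with a median of -0.28. MYOF (myoferlin), a ferlin of membrane fusion and repair, had a log2 fold change of -0.28 with a standard error of 0.33 (edgeR, adjusted p = 0.672). MFGE8 (lactadherin), which binds phosphatidylserine on vesicles and whose entry shares 94.9% of its span with another, had 3030, 16391 and 2909 reads in the MSCs of pigs 1 to 3 against 3344, 7978 and 2655 in their EVs. The pig of replicate 2 was the highest in both groups, and the log2 fold change was -0.80 with a standard error of 0.78 (edgeR, adjusted p = 0.593). It was -0.30 with the pig as a block and 0.70 without MSC replicate 2.

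Among ligands of galectins and enzymes that build their glycans, 14 of 15 listed genes had an entry and 12 were tested. By the unadjusted thresholds 1 of the 12 was higher and 0 were lower, against 5.55% and 3.57% of all entries. That gene was LAMP2, a lysosomal membrane glycoprotein, with 2201, 1028 and 1685 reads in MSCs against 2513, 5300 and 2529 in EVs, a log2 fold change of 1.10 with a standard error of 0.34 (edgeR, adjusted p = 0.247). Its fold change was no longer over 2 without EV replicate 2 (log2 fold change 0.79) or MSC replicate 2 (0.91). FN1, a matrix ligand whose entry is shared in full, had a log2 fold change of 0.78 with a standard error of 0.57 (edgeR, adjusted p = 0.488), and LAMB1, a laminin chain, had 0.41 with a standard error of 0.31 (edgeR, adjusted p = 0.5).

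Genes of other proteins that are common in vesicles were set beside the annexins. Of 37 listed, 30 had an entry and 23 were tested. Of these, 18 had a log2 fold change below 0, against 50.9% of all entries, and the median was -0.34, with 0 higher and 2 lower by the unadjusted thresholds, against 5.55% and 3.57% of all entries, and 0 called by the adjusted threshold in edgeR. The pair was ACTB (beta-actin) and EZR (ezrin). ACTB had 63779, 57641 and 64237 reads in the MSCs of pigs 1 to 3 against 24709, 20680 and 12845 in their EVs, with a log2 fold change of -1.67 and a standard error of 0.34 (edgeR, adjusted p = 0.206). It was the 1 gene of the 23 tested that DESeq2 called lower, against 1.5% of all entries. EZR, which links membrane to actin, had a log2 fold change of -1.03 and a standard error of 0.32 (edgeR, adjusted p = 0.245). It was no longer past a fold of 2 without EV replicate 2 (log2 fold change -0.78) or MSC replicate 1 (-0.92).

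**Figure D5:**
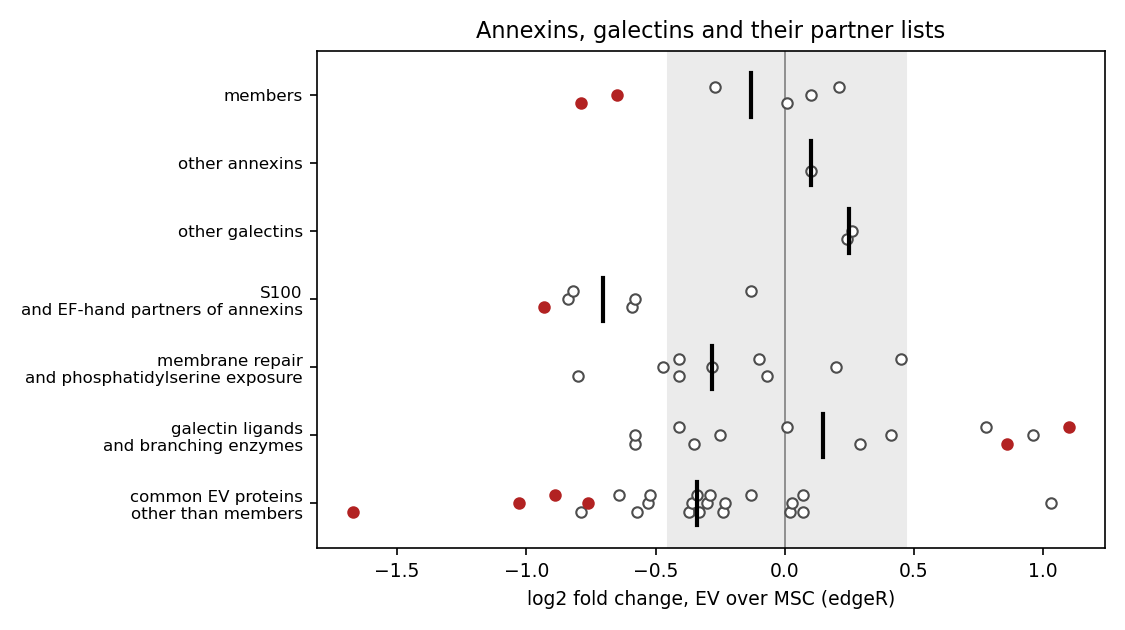
log2 fold change of EV over MSC (horizontal axis) for each tested gene of the 9 and of the 6 partner lists, with filled red points for an unadjusted p under 0.05 in edgeR, open points for the rest and black bars for list medians. The grey band holds the middle of all entries from -0.45 to 0.47, and the 6 S100 genes all lie below 0, against 50.9% of all entries.

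The genes whose profiles were most alike were read over the 6 libraries among 5551 other genes with a symbol and a mean of at least 10 CPM. For ANXA6, the lowest of the 6 in log2 fold change, they were NID2 (nidogen-2, a basement membrane protein) with r = 0.9941, FBLIM1 with 0.9851 and DAAM2 with 0.9847, and their log2 fold changes were -1.91, -0.82 and -1.18. For ANXA4, the highest, they were FAM114A1 with r = 0.9998, SEPTIN7 with 0.9983 and ZW10 with 0.9943, and their log2 fold changes were 0.36, 0.31 and 0.27. With so few libraries high values are common, since 121 genes reached an r over 0.9 with ANXA6 and 307 with ANXA4, and the points share pigs and library depth.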

How the data were processed

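Per the labels, reads were aligned with TopHat to build susScr3. The authors counted them per gene, with featureCounts per the methods while the labels name HTSeq, and deposited raw counts and RPKM, the latter over library totals of which 25.4% to 28.2% were counted reads. The labels name a stranded total RNA kit and the methods an unstranded mRNA kit, so strand use is not known. Symbols came from the table for 4336 entries and from an identifier table for 11804 of 25322 others. Left out were 3 shifted entries, and the miRNA tables were not used. EVs and MSCs were compared with edgeR 4.0.16 in R 4.3.3 (TMM, filterByExpr, quasi-likelihood test), with DESeq2 1.42.0 and limma 3.58.1 as alternatives. The fits were tested on simulated data. Standard errors are the fold change divided by the square root of the F statistic.

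The genes and lists were chosen with earlier results of these data known. Besides the 9 genes, those named were list members with a fold change over 2 and an unadjusted p under 0.05, or, if fewer than 2 passed, the 2 with most reads, and the 3 most alike by Pearson's r of log2 CPM with a prior count of 1.

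Libraries of the same pig, given by the labels, correlated in their deviations from the group means at 0.258, 0.386 and 0.411, and those of different pigs at -0.362 to -0.0422. Deviations cancel out within a group, so positive values for the same pig bring negative ones for different pigs, which add no separate evidence. The pigs are separate animals, while sampling precision follows the 10429085 to 12276855 counted reads.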

Additional observations from a re-analysis of the deposited data

How the results depend on the processing

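Under all alternatives run, 0 of the 6 genes were called by the adjusted threshold, and ANXA5, ANXA6 and ANXA7 kept a log2 fold change below 0. Leaving out each library in turn gave -0.80 to -0.55 for ANXA5, -1.05 to -0.57 for ANXA6 and -0.43 to -0.16 for ANXA7, and 0 or 1 of the genes lower by the unadjusted thresholds, the 1 being ANXA6 without EV replicate 3. The unadjusted p of ANXA5 from edgeR, 0.0398, was 0.081 with the pig as a replicate block. Leaving out a library took it to 0.12 (EV replicate 1), 0.151 (EV replicate 2), 0.0784 (MSC replicate 1) or 0.0703 (MSC replicate 3). That of ANXA6 from edgeR, 0.0345, was 0.0937, 0.136, 0.0516 and 0.106 without these libraries in turn. Without EV replicate 3 or MSC replicate 2 it stayed under 0.05 for both genes. The sign was not stable for the others: leaving out a library gave -0.01 to 0.35 for ANXA4 (-0.01 without MSC replicate 2), -0.07 to 0.35 for ANXA11 (-0.07 without EV replicate 2, -0.04 without MSC replicate 3) and -0.21 to 0.46 for LGALS3 (-0.06 without EV replicate 2, -0.12 without EV replicate 3, -0.21 without MSC replicate 1, -0.14 without MSC replicate 3). LGALS3 was -0.01 with RLE scaling and with DESeq2 and -0.03 without entries that share at least 90% of their span, which was added after the data were seen. The cause of these turns was not tested.

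Over all entries, the adjusted thresholds gave 0 higher and 0 lower with edgeR, 253 and 186 with DESeq2, and 61 and 75 with the pig as a replicate block, which changed no call among the 9 genes. Lower entries numbered 5 without the filter on low counts and 11 and 7 in limma on log2 RPKM plus 1 and plus 0.1. By the unadjusted thresholds, limma with 1 added gave 248 higher and 196 lower against 688 and 442 in edgeR, and leaving out a library gave 511 to 948 higher and 270 to 607 lower, with 270 without EV replicate 2. Few counted reads kept ANXA1, ANXA2 and LGALS1 out of the test. LGALS3, with 116 to 218 reads per library, ran from 9.22 to 20.9 CPM among MSC libraries.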

Other observations

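Several other genes that cells use in quantity stood at or near 0 reads on entries that share their span with another, as LGALS1, ANXA1 and ANXA2 did. Of the 30 genes of common vesicle proteins with an entry, SDCBP, EEF1A1, TPI1 and PPIA were at 0 reads in all 6 libraries, and LDHA had 1 read. CAV1 (caveolin-1) had 2 reads over the 6 libraries and CAPNS1 and PLSCR1 had 0. ITGB1 (CD29), an integrin chain that galectins bind, had 1 read in each MSC library against 2, 2 and 3 in EVs.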
